A study of Mus musculus with 23 samples.

Results

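Expression of 51 genes for glycoproteins and proteoglycans of the extracellular matrix was examined in whole tumors of 5 syngeneic mouse models and in cancer-associated fibroblasts (CAFs) of 4 of these models. The rule lists the members by gene symbol and function, uses no measured value, and gives 51 of the 24940 gene symbols listed in both tables. By role they comprise 9 adhesive glycoproteins, 2 tenascins, 4 SPARC family proteins, 5 thrombospondins, 13 proteins of elastic fibers and microfibrils, 4 linkers of the basement membrane, 2 hyaluronan-binding proteoglycans, 9 small leucine-rich proteoglycans, 2 matrilins and Cthrc1. All 51 passed the filter on low counts in tumors. In CAFs 48 reached 1 RPKM (reads per kilobase of transcript, scaled to library size) in at least 2 libraries, and Acan, Omd and Matn4 did not.

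The tumors grew from the established lines B16-F10 (B16, melanoma), EO771.LMB (EO771, breast), LL/2 (LL2, lung), MC38 (colon) and Pan02 (pancreas). Each model is 1 line of C57BL/6 origin, so that line and cancer type cannot be told apart. All tumors followed the injection of 500000 cells into the right flank or both flanks of adult female C57BL/6 mice. The mice received no other treatment. RNA was taken from a fragment of each tumor at endpoint, which mixes cancer cells with host stroma, in 3 tumors per model and 15 in all. CAFs were the FAP+ cells sorted from the fraction of digested tumors that remained after removal of CD45+ leukocytes, with 2 libraries per model for EO771, LL2, MC38 and Pan02. FAP (fibroblast activation protein) is also carried by some other stromal cells. The p-values below measure the spread between these samples, and whether any 2 tumors came from 1 mouse is not stated. The pair of CAF libraries of a model are called a and b, which are names only, and B16 CAFs were not analysed here. The study states that the CAF RNA of each model came from 2 separate rounds of sorting. How these rounds map to a and b is not given, and library and sorting round cannot be told apart.

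Matrix glycoproteins are secreted proteins that hold collagen fibers, elastic fibers and cells together, and proteoglycans are core proteins that carry long sulfated sugar chains. In tumors they are produced largely by activated fibroblasts and in part by cancer cells and vessel-associated cells. Fibronectin and tenascins offer attachment sites for integrins, fibulins and fibrillins build elastic fibers, nidogens and perlecan join the sheets of basement membranes, and small leucine-rich proteoglycans bind collagen and set the thickness of its fibrils.

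Tumor libraries held between 10035180 and 21946495 counts over all symbols (median 16541415.5). The 7 fibroblast markers were Fap, Pdgfra, Pdgfrb, Thy1 and the collagen genes Col1a1, Col1a2 and Col3a1. Their sum was 387 to 1609 CPM (counts scaled to library size) in B16 tumors and 3725 to 7946 in EO771 tumors. It was 5321 to 12512 in LL2, 2699 to 13124 in MC38 and 42217 to 48223 in Pan02 tumors. Melanocyte markers summed to 21464 to 26867 CPM in B16 tumors. Skeletal muscle markers varied widely within 3 models, with 387 to 3132 CPM in MC38, 5.16 to 1060 CPM in LL2 and 38.8 to 874 CPM in Pan02 tumors, and MC38 tumor 3 was the highest of all 15. MC38 tumor 2 had 2699 CPM of fibroblast markers, against at least 12650 CPM in the other MC38 tumors. In CAFs, leukocyte markers summed to at most 19.8 RPKM, while 2 epithelial keratins, Krt8 and Krt18, reached 385 to 545 and 349 to 483 RPKM in Pan02 CAFs, and Fap itself lay between 1.89 and 11.4 RPKM in all 8 libraries. The libraries of MC38 CAFs differed from each other: 46 of 48 members were lower in b than in a, by a median of 1.84 on the log2 scale, where the median difference over all 13598 genes was 0.04. Of these 48 members 83.3% differed by at least 1 on the log2 scale, against 6.08% of all genes, and the fibroblast markers summed to 6209 RPKM in a and 1389 RPKM in b. Pan02 CAFs showed a smaller difference, with 44 of 48 members lower in b by a median of 0.64. Several CAF counts, medians and named calls of the members are given below with and without a library.

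Nearly every member differed among tumor models, and the set as a whole was low in B16 and high in Pan02. In edgeR's quasi-likelihood test over the 5 models, 50 of 51 members had an adjusted p under 0.05, beside 91.1% of all 15732 genes tested, so that the count is close to the background. The exception was Agrn, the heparan sulfate proteoglycan agrin, with an adjusted p of 0.725. Each model was then set against the mean of the other 4, and members with an adjusted p under 0.05 were counted as higher or lower where the log2 fold change reached 1 in size. In B16 tumors 3 members were higher (background 13.1% of genes) and 40 were lower (background 19.6%). In Pan02 tumors 35 were higher (background 18.8%) and 1, Smoc1, was lower (background 7.92%). The other models were mixed: EO771 had 7 higher (background 9.71%) and 13 lower (13.7%), LL2 had 12 higher (8.51%) and 8 lower (8.3%), and MC38 had 12 higher (11.2%) and 4 lower (8.23%). In either direction 43 members were called for B16 (32.7% of genes), 36 for Pan02 (26.7%), 20 for EO771 (23.4%), 20 for LL2 (16.8%) and 16 for MC38 (19.5%). The median log2 fold change of the members was -2.67 for B16, -0.57 for EO771, -0.32 for LL2, 0.13 for MC38 and 2.65 for Pan02, where the median over all genes lay between -0.04 and 0.05. Total-count scaling in place of TMM moved all genes by 0.14 in MC38 and by -0.11 in Pan02.

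**Figure D1:**
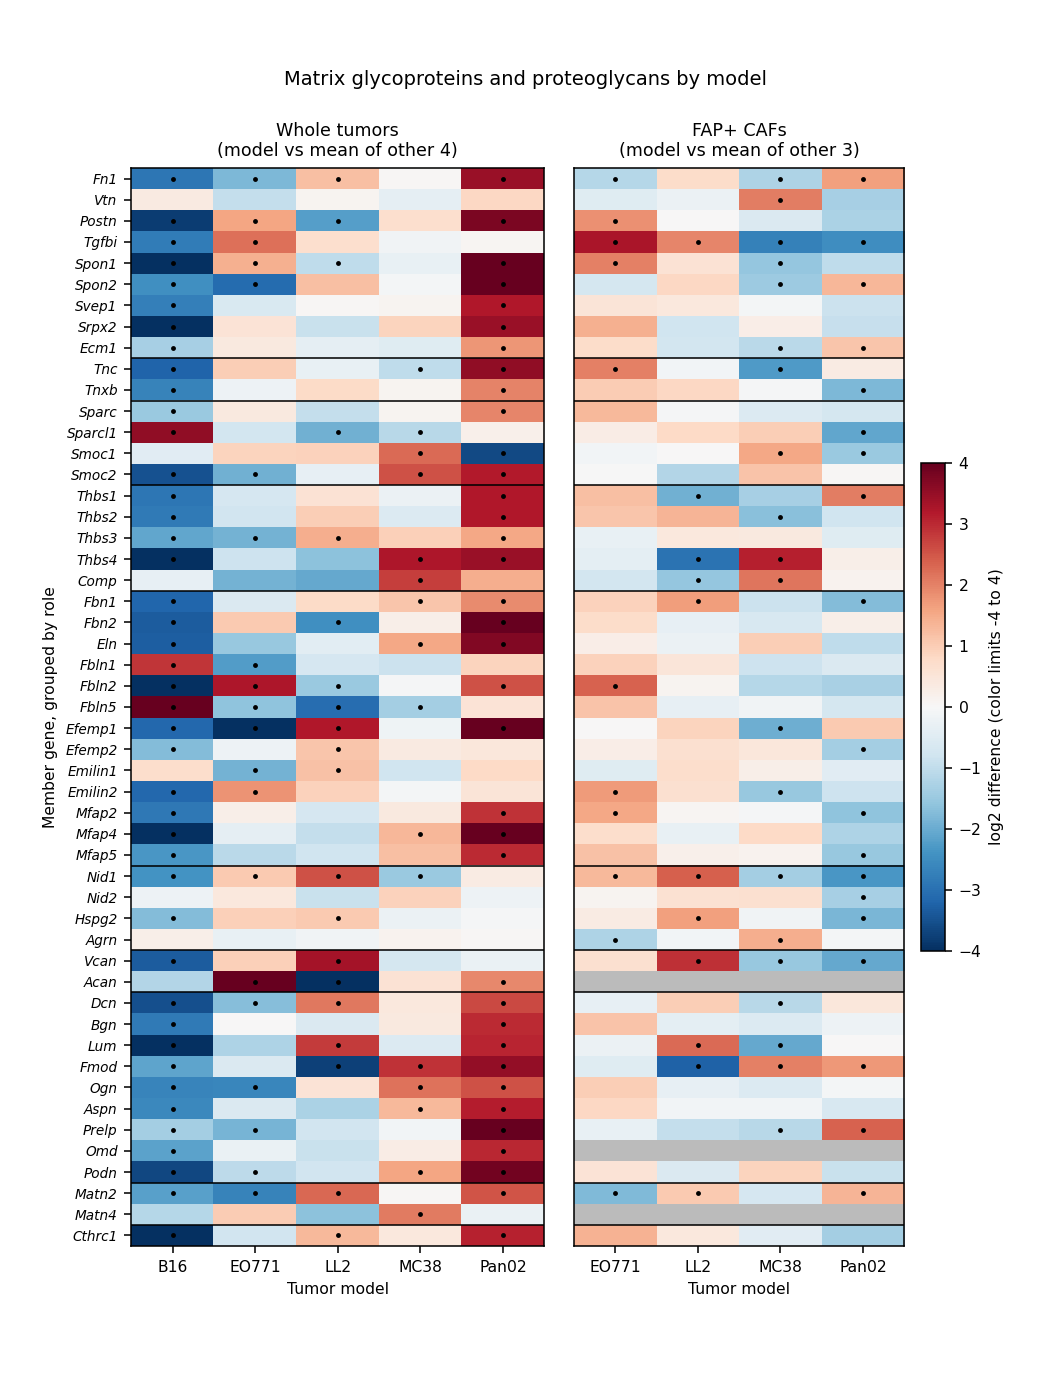
Log2 difference of each model from the mean of the other models, for the 51 members (rows, grouped by role) in tumors (5 columns) and CAFs (4 columns). Color gives the difference, a dot marks a member counted as higher or lower, and gray marks Acan, Omd and Matn4, which were not tested in CAFs. The B16 tumor column is low for 40 members and the Pan02 tumor column is high for 35 with 1 low, while the Pan02 CAF column is high for 7 and low for 12.

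**Figure D2:**
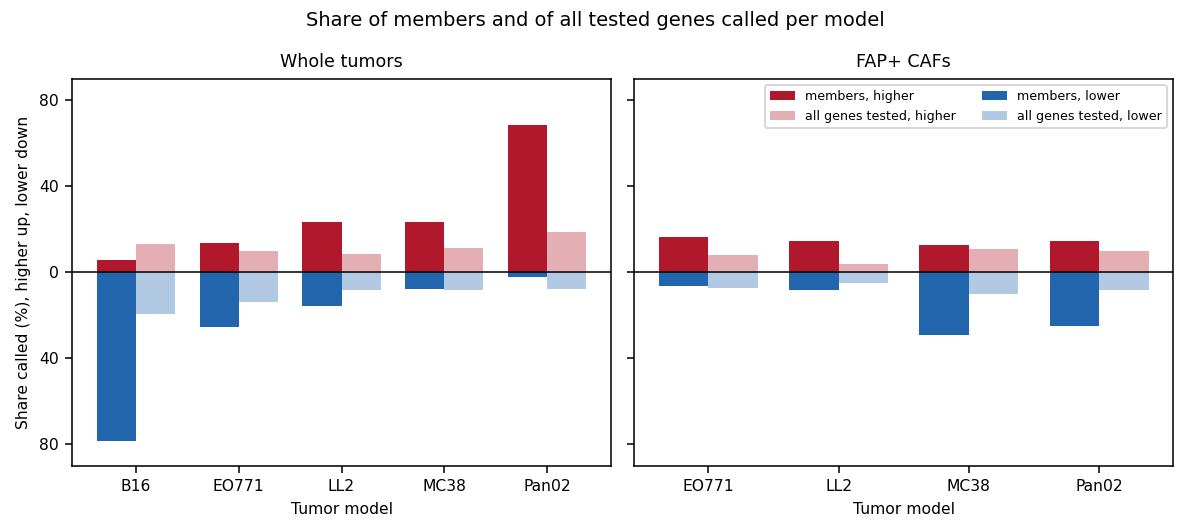
Percentage of members counted as higher or lower in each model (bars), beside the percentage of all genes tested in the same comparison, for tumors and CAFs. Members stood furthest from all genes in B16 tumors (40 of 51 lower, background 19.6%) and Pan02 tumors (35 of 51 higher, background 18.8%).

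The summed fibroblast markers followed the same order at both ends: all 7 were counted as lower in B16 and all 7 as higher in Pan02 tumors. Fewer fibroblasts and less RNA per fibroblast cannot be told apart in whole tumors, and the part of fibroblast number in these differences was not tested. The summed members divided by the summed fibroblast markers gave 2.66 to 8.79 in B16, 1.53 to 2.32 in EO771, 0.988 to 1.39 in LL2, 0.631 to 1.94 in MC38 and 0.599 to 0.711 in Pan02 tumors. The members thus made up a larger sum relative to these markers in B16 than in Pan02, with no overlap. These markers include the collagen genes Col1a1, Col1a2 and Col3a1. The ratio therefore sets matrix genes partly against other matrix genes and is not a measure per fibroblast. The B16 sums also include Sparcl1, Fbln1 and Fbln5, described below, which were higher in B16 while most members were lower. Their part in the B16 ratio was not tested. Added up per length, the members took 0.255% ± 0.036 (SD, n = 3) of the summed RPKM of all symbols in B16 tumors and 1.74% ± 0.14 in Pan02 tumors. The shares of EO771 (0.676% ± 0.126), LL2 (0.551% ± 0.128) and MC38 (0.536% ± 0.193) overlapped one another.

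The promoters of 6 members are shown because these members lay above every library of the other models in both the tumors and the CAFs of the same model, as described below, and had a sequence at hand. Promoter windows, from 250 bases before to 50 bases after a start site, were taken from RefSeq on GRCm38.p6 and were found for 34 of 51 members. Capitals mark 4 short motifs on either strand: TATAAA, the AP-1 motif TGANTCA, the TEAD motif CATTCC and the SP/KLF motif GGGCGG. Each sequence is written 5′ to 3′ on the strand of its gene. The Vcan window is chr13:89742463-89742762 on the minus strand, that of Nid1 is chr13:13437352-13437651 on the plus strand and that of Tgfbi is chr13:56609336-56609635 on the plus strand. Emilin2 has 2 listed start sites, and the window at chr17:71310962-71311261 on the minus strand holds the start of the transcript counted in tumors. Ecm1 lies at chr3:95739520-95739819 and Prelp at chr1:133921352-133921651, both on the minus strand.
Vcan: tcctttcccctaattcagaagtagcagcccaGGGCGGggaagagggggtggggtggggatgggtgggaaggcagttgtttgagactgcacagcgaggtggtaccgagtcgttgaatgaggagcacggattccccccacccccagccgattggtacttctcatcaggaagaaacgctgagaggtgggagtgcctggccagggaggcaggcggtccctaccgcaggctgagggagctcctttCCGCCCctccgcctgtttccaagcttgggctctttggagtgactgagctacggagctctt
Nid1: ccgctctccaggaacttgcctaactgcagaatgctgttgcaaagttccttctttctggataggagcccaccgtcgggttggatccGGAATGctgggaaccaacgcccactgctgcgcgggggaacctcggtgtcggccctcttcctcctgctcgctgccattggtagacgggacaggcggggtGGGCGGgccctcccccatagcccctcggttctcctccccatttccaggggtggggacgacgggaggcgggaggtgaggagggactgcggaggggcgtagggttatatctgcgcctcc
Tgfbi: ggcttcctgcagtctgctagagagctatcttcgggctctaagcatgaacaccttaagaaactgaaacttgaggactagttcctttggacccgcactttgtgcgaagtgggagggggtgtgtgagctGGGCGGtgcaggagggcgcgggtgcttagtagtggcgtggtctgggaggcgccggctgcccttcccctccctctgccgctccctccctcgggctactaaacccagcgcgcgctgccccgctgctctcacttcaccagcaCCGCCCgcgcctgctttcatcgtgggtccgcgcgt
Emilin2: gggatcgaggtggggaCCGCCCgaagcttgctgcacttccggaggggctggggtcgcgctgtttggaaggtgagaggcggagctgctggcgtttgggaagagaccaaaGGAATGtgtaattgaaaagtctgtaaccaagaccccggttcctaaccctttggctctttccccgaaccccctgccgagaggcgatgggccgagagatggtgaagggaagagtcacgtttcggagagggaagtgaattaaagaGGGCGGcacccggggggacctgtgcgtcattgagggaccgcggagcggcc
Ecm1: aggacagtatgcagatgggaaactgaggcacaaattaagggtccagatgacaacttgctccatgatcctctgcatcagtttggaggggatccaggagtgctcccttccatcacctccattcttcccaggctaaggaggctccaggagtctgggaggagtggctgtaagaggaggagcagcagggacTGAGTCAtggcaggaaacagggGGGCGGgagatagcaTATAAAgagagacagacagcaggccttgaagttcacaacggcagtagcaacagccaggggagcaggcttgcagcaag
Prelp: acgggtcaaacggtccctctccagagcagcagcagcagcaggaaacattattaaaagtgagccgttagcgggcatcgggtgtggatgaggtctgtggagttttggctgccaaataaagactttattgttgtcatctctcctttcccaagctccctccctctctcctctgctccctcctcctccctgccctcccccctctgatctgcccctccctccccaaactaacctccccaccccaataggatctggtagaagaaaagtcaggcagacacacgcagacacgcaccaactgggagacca

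The SP/KLF motif occurred at least once in the windows of 5 of these 6 genes, all but Prelp, and in 61.8% of the 34 members against 38.2% of all 27025 genes with a window. The Ecm1 window held TATAAA, the AP-1 motif and the SP/KLF motif. TATAAA was found in 23.5% of the members (15.7% of all genes), the TEAD motif in 26.5% (16.6%) and the AP-1 motif in 11.8% (8.97%). These matches are descriptions of the letters in the windows and not sites of binding.

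Among the adhesive glycoproteins, which tie cells to the matrix, 8 of 9 were lower in B16 and 7 of 9 were higher in Pan02 tumors. Fn1, fibronectin, on chromosome 1, was the most abundant of them per length and read 137, 282 and 298 CPM in the 3 B16 tumors and 7899, 7271 and 9153 CPM in the 3 Pan02 tumors. All B16 tumors lay below and all Pan02 tumors above the tumors of every other model, with a log2 fold change 3.45 ± 0.23 (SE), adjusted p = 5.23e-08 in Pan02. LL2 tumors, at 3369, 1165 and 2425 CPM, were also counted as higher (log2 fold change 1.20 ± 0.25 (SE), adjusted p = 0.00178), a call lost without LL2 tumor 1 (log2 fold change 0.81), while EO771 tumors, at 349, 398 and 580.3 CPM, were lower (log2 fold change -1.79 ± 0.31 (SE), adjusted p = 0.000274).

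Postn, periostin, a matricellular protein of activated fibroblasts, was high in Pan02 at 1752, 1768 and 1949.6 CPM and in EO771 at 291, 527 and 803 CPM. B16 tumors read 13.995, 33.2 and 34.6 and LL2 tumors 72.5, 58.3 and 68.9 CPM. The 2 low models did not overlap with each other or with any other model (Pan02 log2 fold change 3.76 ± 0.30 (SE), adjusted p = 2.21e-07; EO771 log2 fold change 1.57 ± 0.31 (SE), adjusted p = 0.000895). Spon1, F-spondin, shared this order, with 483, 462 and 644 CPM in Pan02 and 4.03, 4.91 and 7.61 CPM in B16 tumors, and was also higher in EO771 and lower in LL2. The LL2 call of Spon1 was lost without LL2 tumor 1 (log2 fold change -0.90, adjusted p = 0.0693) and, with a log2 fold change of -0.93 to -0.99, under the replicate block and without B16 tumor 3, EO771 tumor 3 or MC38 tumors 1 or 3.

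Tgfbi, a TGF-β-induced integrin ligand, had its top in EO771 rather than Pan02. EO771 tumors read 1016, 1036 and 1265 CPM, above all other tumors (46.5 to 639 CPM), with a log2 fold change 2.19 ± 0.19 (SE), adjusted p = 5.69e-07. Spon2, an integrin ligand also named mindin, was the member with the third largest rise in Pan02, at 21.9, 82.04 and 84.99 CPM against 0.0982 to 13.7 CPM elsewhere (log2 fold change 4.41 ± 0.52 (SE), adjusted p = 7.77e-06). EO771 tumors read 0.953, 0.255 and 1.74 CPM and overlapped with B16 tumors at the low end (log2 fold change -3.08 ± 0.83 (SE), adjusted p = 0.00659). Spon2 was counted as lower in B16, but not when B16 tumor 1 (adjusted p = 0.0511) or 2 (0.0630) was left out. Ecm1, a glycoprotein that binds perlecan and fibulins, read 655, 766 and 728 CPM in Pan02 tumors, above all others (384 CPM at most). Svep1 and Srpx2 were lower in B16 and higher in Pan02. Vtn, vitronectin, a plasma protein made mainly in liver, spanned 4.71 to 19.8 CPM and was called in no model.

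Both tenascins, large glycoproteins that modulate adhesion, were lower in B16 and higher in Pan02 tumors. Tnc read 2624, 1571 and 1033 CPM in Pan02 and 18.5, 52.9 and 51.6 CPM in B16, with the other models between them, and was lower in MC38 (log2 fold change -1.02 ± 0.36 (SE), adjusted p = 0.0293), a call lost under total-count scaling (adjusted p = 0.0515) and without MC38 tumor 2 (0.148) or 3 (0.0644). It was also lost, with a log2 fold change of -0.91 to -0.98, without B16 tumors 2 or 3, EO771 tumor 3, LL2 tumor 2 or Pan02 tumor 1. Tnxb, abundant in loose connective tissue, spanned 1.42 to 103 CPM and overlapped between Pan02 and LL2.

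The SPARC family, collagen-binding and calcium-binding matricellular proteins, was divided. Sparc, the most abundant member per length in both tables, read 5842, 4838 and 5136 CPM in Pan02 tumors, above the 2531 CPM of the highest other tumor (log2 fold change 1.94 ± 0.20 (SE), adjusted p = 2.14e-06). B16 tumors, at 496, 912 and 951 CPM, were lower (log2 fold change -1.49 ± 0.25 (SE), adjusted p = 0.000134) and overlapped with LL2. Its relative Sparcl1, known from vessels and brain, went the other way in B16, with 589, 693 and 507 CPM in B16 tumors and 17.7 to 121 CPM in all others. The B16 tumors lay far above every other tumor (log2 fold change 3.54 ± 0.23 (SE), adjusted p = 1.96e-08), and Sparcl1 was lower in LL2 and MC38 against a mean that includes B16. Among the 4 models without B16 the log2 difference of Sparcl1 was -1.12 for LL2 and -0.23 for MC38, both with overlap, and the MC38 call was lost under total-count scaling (log2 fold change -0.95) and without MC38 tumor 2 (-0.84).

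Smoc1, a calcium-binding protein of basement membranes, was the only member lower in Pan02. Pan02 tumors read 1.07, 0.944 and 1.56 CPM and MC38 tumors 29.9, 33.96 and 28.6 CPM. The former lay below and the latter above all other tumors, with a log2 fold change -3.60 ± 0.19 (SE), adjusted p = 5.59e-09 and a log2 fold change 2.25 ± 0.12 (SE), adjusted p = 1.92e-08. Smoc2, by contrast, was higher in Pan02 and MC38 and lower in B16 and EO771, at 16.2 to 30.5 CPM in Pan02 and 0 to 0.948 CPM in B16. The MC38 call of Smoc2 was lost without MC38 tumor 3 (adjusted p = 0.0586) and its EO771 call without any 1 of the 3 EO771 tumors (0.0746 to 0.167) or any of 8 tumors of other models (0.0526 to 0.0795).

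Of the 5 thrombospondins, adhesive proteins that bind calcium and growth factors, 4 were lower in B16 and 4 were higher in Pan02 tumors. Thbs1, an activator of latent TGF-β, read 2282, 1543 and 734 CPM in Pan02 tumors, above the 418 CPM of the highest other tumor (log2 fold change 3.21 ± 0.34 (SE), adjusted p = 3.70e-06). Thbs2 had the same extremes, and Thbs3 was low in both B16 and EO771, at 9.67 to 12.99 and 10.7 to 15.6 CPM, and higher in LL2 and Pan02. Thbs4, found in tendon and muscle, was the most uneven: MC38 tumors read 12.7, 17.2 and 155 CPM, Pan02 tumors 8.67, 47.7 and 149.9 CPM and B16 tumors 0.0982, 1.21 and 1.32 CPM. B16 overlapped with LL2 (1.02 to 6.31 CPM) at the bottom (log2 fold change -4.20 ± 1.19 (SE), adjusted p = 0.00714), while 1 tumor decided the level of MC38 (log2 fold change 3.23 ± 0.72 (SE), adjusted p = 0.00196).

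Without MC38 tumor 3 the log2 fold change of Thbs4 in MC38 was 1.16 with an adjusted p of 0.217. Comp, the cartilage oligomeric matrix protein, read 2.89, 0.447 and 8.80 CPM in MC38 tumors and at most 2.64 CPM elsewhere (log2 fold change 2.77 ± 0.63 (SE), adjusted p = 0.00245), and it too lost the call without that tumor (1.47, adjusted p = 0.103). The number of members called in MC38 fell from 16 to 6 without MC38 tumor 3, with 2 higher and 4 lower. The 10 higher calls lost without it also included Eln (0.42, adjusted p = 0.589), Aspn (0.47, adjusted p = 0.392), Mfap4 (0.40, adjusted p = 0.474), Podn (0.83, adjusted p = 0.0208) and Matn4 (1.33, adjusted p = 0.109). Its skeletal muscle markers, 3132 CPM, were above those of every other tumor, and their part in these values was not tested.

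Elastic fibers consist of an elastin core on a scaffold of fibrillin microfibrils, and fibulins join them to cells and other matrix. Of these 13 members 10 were lower and 2 higher in B16, and 8 were higher in Pan02 tumors. The 2 that were higher in B16 were fibulins. Fbln5, which guides elastin assembly, read 761, 666 and 639 CPM in B16 tumors and 5.27 to 49.4 CPM in the 12 others, a log2 fold change 5.47 ± 0.23 (SE), adjusted p = 2.33e-10, the largest rise of any member in tumors. It was lower in EO771, LL2 and MC38, the last at 10.4, 10.7 and 25.8 CPM (log2 fold change -1.36 ± 0.30 (SE), adjusted p = 0.00171), against a mean that includes B16. Among the 4 models without B16 the log2 difference of Fbln5 was -0.27 for EO771, 0.0070 for MC38 and -1.78 for LL2. Fbln1 read 305, 324 and 340.3 CPM in B16 tumors and 11.97 to 129 CPM elsewhere (log2 fold change 2.87 ± 0.29 (SE), adjusted p = 1.71e-06), with no overlap.

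In the same B16 tumors melanocyte markers summed to 21464 to 26867 CPM, where no other tumor exceeded 57.4 CPM. Schwann cell markers summed to 98.3 to 180.2 CPM in B16 and 34.7 to 96.5 CPM in Pan02 tumors. Of these markers 3 of 5 lay above the mean of the other models in B16 and 5 of 5 in Pan02. Whether the 3 members high in B16 came from melanoma cells was not tested.

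Fbln2, a fibulin of vessels and activated fibroblasts, had the opposite pattern. B16 tumors read 7.42, 33.1 and 45.96 CPM, EO771 tumors 1505, 2033 and 2047 CPM and Pan02 tumors 1545, 1211 and 1003 CPM. B16 lay below all other tumors (log2 fold change -4.25 ± 0.58 (SE), adjusted p = 2.58e-05), and EO771 was the top model (log2 fold change 3.25 ± 0.37 (SE), adjusted p = 7.67e-06) with 1 tumor within the range of Pan02. Efemp1 (fibulin-3) split the models most sharply: Pan02 read 132, 247 and 238, LL2 109.5, 71.8 and 110.0 and EO771 1.27, 0.849 and 2.00 CPM. Pan02 lay above all others (log2 fold change 4.57 ± 0.32 (SE), adjusted p = 7.98e-08), LL2 came second (log2 fold change 3.22 ± 0.33 (SE), adjusted p = 4.83e-06), and EO771 overlapped with B16 at the bottom (log2 fold change -4.47 ± 0.56 (SE), adjusted p = 1.69e-05). Efemp2 (fibulin-4) was highest in LL2, at 245, 242 and 237 CPM against 41.1 to 189 CPM, with tumors of a model very close to one another.

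Fbn2, a fibrillin of developing tissue, read 63.02, 36.5 and 43.2 CPM in Pan02 tumors and 0.324 to 10.7 CPM in the rest (log2 fold change 4.52 ± 0.38 (SE), adjusted p = 3.78e-07). Fbn1, the main fibrillin of adult microfibrils, was also higher in Pan02, at 319 to 535 CPM, and in MC38, at 164 to 311 CPM, a call lost without MC38 tumor 1 (log2 fold change 0.94, adjusted p = 0.0845) or 3 (0.94, adjusted p = 0.0808). Its reads are uncertain to a degree, since 20.1% of its exon bases are shared with another gene model and reads were counted without strand, as 13.9% are for Svep1. Eln, elastin, was higher in Pan02 (169 to 496 CPM) and MC38 (27.3 to 190.4 CPM) and lower in B16 (1.42 to 12.4 CPM), and the microfibril-associated Mfap2, Mfap4 and Mfap5 were all lower in B16 and higher in Pan02. Without MC38 tumor 3 the MC38 log2 fold change of Eln was 0.42 with an adjusted p of 0.589.

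The emilins, glycoproteins at the surface of elastic fibers, did not follow this order. Emilin2 read 342, 291 and 305 CPM in EO771 tumors, above all others (204 CPM at most), and 17.1, 22.1 and 21.7 CPM in B16, below all others (log2 fold change 1.78 ± 0.14 (SE), adjusted p = 2.10e-07 in EO771). Emilin1 was lowest in EO771, at 38.6, 46.8 and 52.8 CPM against 73.3 to 329.7 CPM, and higher in LL2, where the log2 fold change fell under 1 without LL2 tumor 1 (0.91).

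No basement membrane linker was counted as higher in Pan02. Nid1, nidogen-1, which joins laminin to type IV collagen, read 1259.8, 697 and 1106 CPM in LL2 tumors, above the 500.0 CPM of the highest other tumor (log2 fold change 2.53 ± 0.23 (SE), adjusted p = 1.87e-06). MC38 tumors read 153, 48.5 and 127 CPM and overlapped with B16 at the bottom (log2 fold change -1.49 ± 0.30 (SE), adjusted p = 0.000904). Hspg2, perlecan, was lower in B16 (175 to 259 CPM, below all others) and higher in LL2 (565 to 1345 CPM), where its log2 fold change fell under 1 without LL2 tumor 1 (0.89) or 3 (0.84) or Pan02 tumor 3 (0.98). Nid2 and Agrn were called in no model, and their ranges were 15.05 to 72.1 and 97.8 to 287 CPM.

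Vcan, versican, a large proteoglycan that holds hyaluronan in loose matrix, was highest in LL2 tumors. They read 282, 110.2 and 236 CPM, while the other tumors read 3.68 to 64.5 CPM (log2 fold change 3.32 ± 0.31 (SE), adjusted p = 2.19e-06). B16 tumors, at 3.68, 4.23 and 7.36 CPM, lay below all others. Acan, aggrecan, the main proteoglycan of cartilage, was near the detection limit everywhere. EO771 tumors read 1.56, 1.53 and 2.79 CPM (18 to 32 counts), above every other tumor, and it had 0 counts in all 3 LL2 tumors, where 3 counts would equal up to 0.204 CPM. Acan was counted as higher in Pan02 too, at 0.831, 0.675 and 0 CPM. This call was lost with DESeq2 (adjusted p = 0.0599), under the replicate block (0.0732), without Pan02 tumor 1 (0.201) or 2 (0.111) and without any of 8 tumors of other models (0.0507 to 0.0584). The EO771 mean was at least 9.61-fold higher than that floor, a bound that covers counting error only, and the fitted values of Acan (4.35 in EO771, -5.66 in LL2) depend on the prior count. With Acan at its bound in LL2 (log2 -1.75) the LL2 median of the members stayed at -0.32.

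All 9 small leucine-rich proteoglycans were counted as lower in B16 and all 9 as higher in Pan02 tumors. The B16 count fell in some alternatives. Fmod lost its B16 call under the replicate block (adjusted p = 0.0564), without B16 tumor 1 (0.139) or 3 (0.113) and without any of 8 tumors of other models (0.0509 to 0.0601). Omd lost it without B16 tumor 2 (adjusted p = 0.118) or 3 (0.108) or LL2 tumor 1 (0.0525), Ogn without B16 tumor 2 (0.0505) and Prelp without B16 tumor 1 (0.0532). Bgn, biglycan, was the most abundant of them per length, at 2533, 1858 and 1637 CPM in Pan02 and 40.3, 106 and 95.9 CPM in B16 tumors. Pan02 lay above and B16 below every other tumor (log2 fold change 2.98 ± 0.32 (SE), adjusted p = 3.68e-06; log2 fold change -2.81 ± 0.45 (SE), adjusted p = 0.000111). Dcn, decorin, which coats collagen fibrils, was higher in LL2 as well, at 443, 253 and 427 CPM beside 271, 549 and 694 CPM in Pan02, and the 2 models overlapped. Lum, lumican, had the same pair at the top, with 349, 83.7 and 124 CPM in LL2 (log2 fold change 2.78 ± 0.43 (SE), adjusted p = 0.000184) and 1.67, 3.17 and 7.01 CPM in B16, below all others.

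Fmod, fibromodulin, a collagen-binding proteoglycan of tendon, read 14.2, 2.48 and 44.3 CPM in MC38 tumors and 0.612, 0.365 and 0.563 CPM in LL2 tumors. The MC38 values were spread widely (log2 fold change 2.89 ± 0.60 (SE), adjusted p = 0.00131) and lost the call without MC38 tumor 3 (1.58, adjusted p = 0.0577), while LL2 overlapped with B16 at the bottom (log2 fold change -3.74 ± 0.97 (SE), adjusted p = 0.00707). Ogn, osteoglycin, was higher in MC38 and Pan02 and lower in EO771, where the tumors read 0.636, 0.594 and 1.96 CPM and the call was lost without EO771 tumor 1 (adjusted p = 0.0711) or 2 (0.0646). Prelp, which anchors basement membranes to connective tissue, read 228, 466 and 425 CPM in Pan02 and 11.4 to 69.3 CPM in the rest, without overlap (log2 fold change 4.08 ± 0.31 (SE), adjusted p = 1.58e-07). Aspn, Omd and Podn were also above all other tumors in Pan02, at 65.95 to 109, 1.79 to 2.28 and 43.3 to 61.2 CPM.

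Matn2, a matrilin that forms filaments around cells, divided the models in 2 groups, with 117 to 213 CPM in LL2 and 180.1 to 205 CPM in Pan02 on one side and 6.81 to 14.4 CPM in EO771 and 11.999 to 15.8 CPM in B16 on the other. The 2 high models overlapped with each other, as did the 2 low ones, and MC38 lay between. Matn4 was counted as higher in MC38 alone, at 1.01, 0.397 and 2.09 CPM, and not without MC38 tumor 3 (adjusted p = 0.109). Cthrc1, a collagen triple helix repeat protein of injured and tumor stroma, was higher in Pan02 (57.9, 136 and 90.8 CPM, above all others) and LL2 and lower in B16 (0.196, 1.71 and 3.17 CPM, below all others). The LL2 call of Cthrc1 was lost with DESeq2 (adjusted p = 0.0898), under the replicate block (0.0577), without any 1 of the 3 LL2 tumors (0.0522 to 0.146) and without any of 7 tumors of other models (0.0535 to 0.0710).

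Counting only members without any overlap gave the same picture for B16 and Pan02. In the other models few members stood apart in this way, although more were called. In B16, 20 of 51 members lay below all 12 other tumors (background 12.2% of genes) and 3 above (14.5%), and in Pan02 22 lay above (8.92%) and 1 below (9.52%). EO771 had 3 above (9.75%) and 2 below (7.07%), LL2 had 3 above (5.14%) and 0 below (2.35%), and MC38 had 1 above (7.68%) and 0 below (6.07%).

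**Figure D3:**
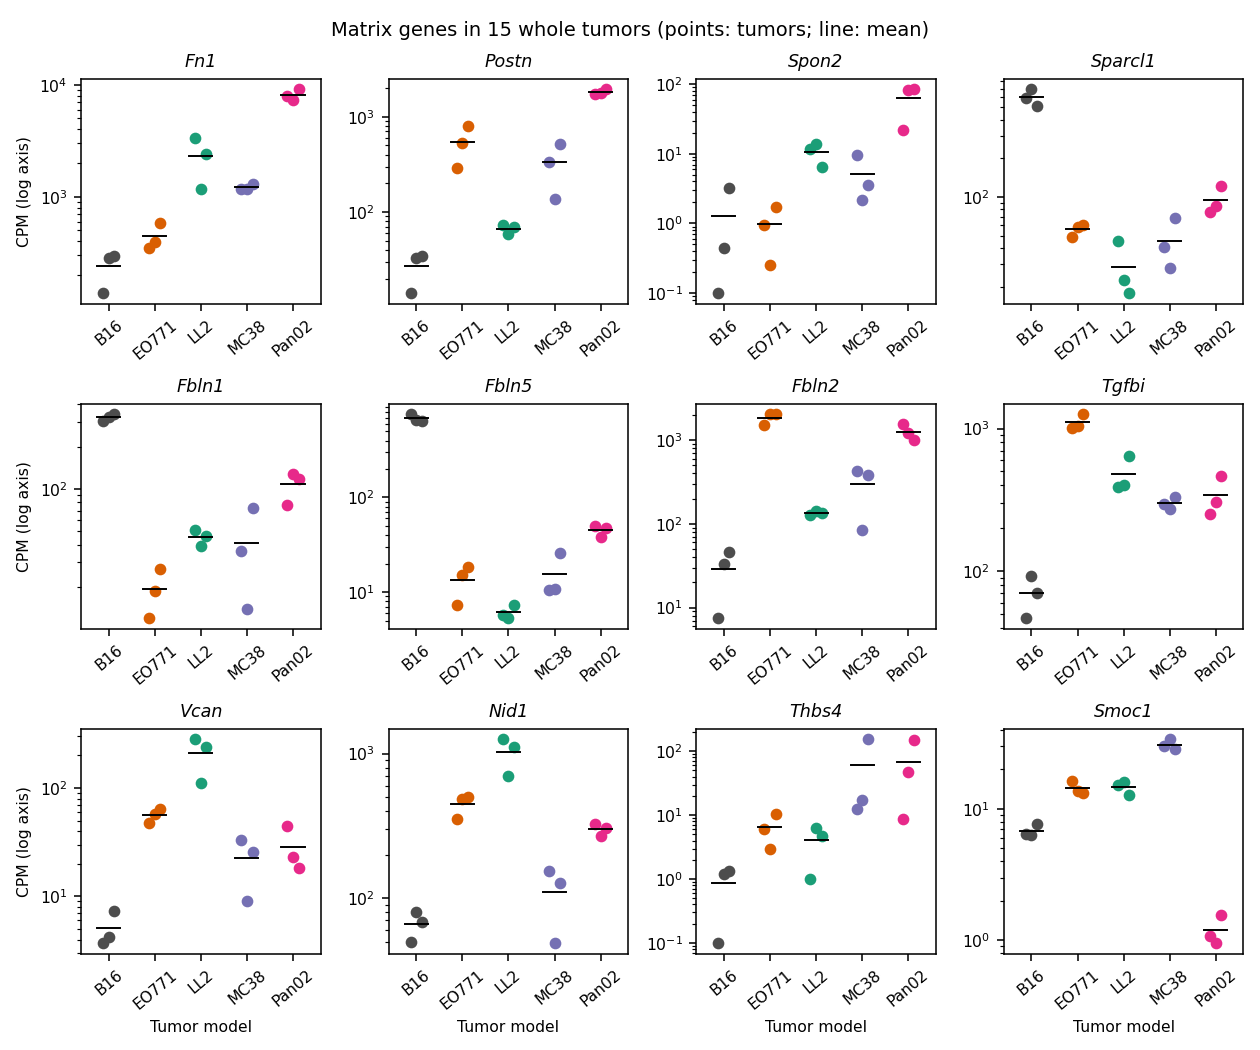
CPM (log scale) of 12 members in each of the 15 tumors, by model, with 1 point per tumor and a bar at the mean of 3 tumors. Fn1, Postn and Spon2 peak in Pan02, Sparcl1, Fbln1 and Fbln5 in B16, Tgfbi and Fbln2 in EO771, Vcan and Nid1 in LL2 and Smoc1 in MC38.

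In sorted CAFs members were called in both directions in every model, and the counts for MC38 turned with the library left out. RPKM values were compared as log2(RPKM + 1) with limma, which understates differences of low genes, and 29 of 48 members differed among the 4 models, beside 80.4% of all 13598 genes. Against the mean of the other 3 models, EO771 CAFs had 8 members higher (background 8.05%) and 3 lower (7.06%), and LL2 CAFs had 7 higher (3.89%) and 4 lower (5.13%). MC38 CAFs had 6 higher (10.9%) and 14 lower (9.87%), and Pan02 CAFs had 7 higher (9.73%) and 12 lower (8.41%). In either direction 11 members were called for EO771 CAFs (15.1% of genes), 11 for LL2 (9.02%), 20 for MC38 (20.7%) and 19 for Pan02 (18.1%). The median log2 difference of the members was 0.68 for EO771, 0.16 for LL2, -0.50 for MC38 and -0.76 for Pan02. Without MC38 library b the MC38 median of the members was 0.62, above the 0.37 of EO771, and without library a it was -1.26, below the -0.44 of Pan02.

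These counts depended on the MC38 libraries. No share of all genes is given for the fits without a library. Their counts therefore cannot be read as particular to the members. Without MC38 library b, 47 of 48 members differed among models, and MC38 CAFs had 16 higher and 4 lower in place of 6 and 14, with 10 of the 14 lower calls lost. Without library a they had 4 higher and 26 lower, and 45 of 48 differed. EO771 CAFs had 12 members called without b and 24 without a, LL2 CAFs 15 and 17, and Pan02 CAFs 30 and 20. EO771 and LL2 CAFs each fell to 4 called members without either of their own libraries, and Pan02 CAFs to 13 without a and 10 without b, with the lone library assumed to vary like the other models. In MC38 libraries a and b the fibroblast markers, which include collagen genes, summed to 6209 and 1389 RPKM and the pericyte markers to 225 and 49.1 RPKM. Endothelial markers summed to 36.5 and 26.6 RPKM and epithelial markers to 4.23 and 1.78 RPKM. Leukocyte markers were low in both, at 1.19 and 0.985 RPKM. The part of these in the members' values was not tested.

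Per length, Sparc, Fn1, Bgn, Dcn, Postn and Fbln2 were the most abundant members in CAFs, with means of 1401, 862, 617, 381, 362 and 245 RPKM over the 8 libraries. Sparc read 2356 and 2437 RPKM in EO771 CAFs, above all other libraries, 1262 and 1136 in LL2, 1848 and 453 in MC38 and 941 and 778 in Pan02 (EO771 log2 difference 1.29 ± 0.47 (SE), adjusted p = 0.0503). Bgn read 953 and 995 RPKM in EO771, 469 and 412 in LL2, 959 and 167 in MC38 and 567 and 410.0 in Pan02 CAFs. Neither passed the test in any model, and library b of MC38 was the lowest of all 8 for both. Sparc was called in EO771 after rescaling by a median of ratios (adjusted p = 0.0448) and with edgeR on CAF values divided by their smallest step (0.0402). Without MC38 library a the EO771 log2 difference was 1.63 for Sparc and 1.56 for Bgn. Dcn read 551 and 604 RPKM in LL2 and 354 and 540.3 RPKM in Pan02 CAFs, with 275 and 307 in EO771 and 295 and 125 in MC38 (log2 difference -1.12 ± 0.32 (SE), adjusted p = 0.0180). The MC38 call of Dcn was lost without library b (log2 difference -0.51, adjusted p = 0.0832).

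EO771 CAFs had 3 adhesive glycoproteins, a tenascin, 3 elastic fiber members and Nid1 among their higher members. Tgfbi read 207 and 209.8 RPKM there, 105 and 106 RPKM in LL2, 16.6 and 4.04 in MC38 and 14.4 and 6.18 in Pan02 CAFs. EO771 lay above all other libraries (log2 difference 3.26 ± 0.46 (SE), adjusted p = 0.00107), LL2 came next, and MC38 and Pan02 overlapped far below (log2 difference -2.71 ± 0.46 (SE), adjusted p = 0.00170; log2 difference -2.50 ± 0.46 (SE), adjusted p = 0.00312). Postn read 801 and 652 RPKM in EO771 CAFs and at most 481 RPKM elsewhere (log2 difference 1.83 ± 0.58 (SE), adjusted p = 0.0316), and Spon1 and Tnc were also above all other libraries in EO771. Postn lost the call without EO771 library a (adjusted p = 0.164) or b (0.117), LL2 library a (0.0610) or b (0.0737) or Pan02 library b (0.0604), and without the filter on low values (0.0754). Spon1 lost it without EO771 library a (0.0903) or b (0.0762), Tnc in 7 alternatives, among them without EO771 library a (0.161) or b (0.107), and Nid1 in 8, among them without EO771 library a (0.189) or b (0.171). Fbln2 read 616 and 544 RPKM in EO771 and 40.9 to 209.8 RPKM in the rest (log2 difference 2.35 ± 0.56 (SE), adjusted p = 0.0107), but lost the call without EO771 library a (adjusted p = 0.0779) or b (0.0651). Emilin2 read 83.3 and 86.2 RPKM, above all others (log2 difference 1.70 ± 0.17 (SE), adjusted p = 0.000279).

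Matn2 was the member with the largest fall in EO771 CAFs, at 13.3 and 12.7 RPKM against 21.97 to 78.2 RPKM, below all other libraries (log2 difference -1.76 ± 0.12 (SE), adjusted p = 5.34e-05). Epithelial markers summed to 494 to 501 RPKM in these CAFs, nearly all of it Krt8. Only 1 of 6 epithelial markers lay above the mean of the other models (median log2 difference -0.99). Leukocyte markers summed to 18.6 to 19.8 RPKM, and the part of these markers was not tested.

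Higher in LL2 CAFs were 2 basement membrane linkers, versican and 4 others. Vcan read 57.4 and 62.8 RPKM in LL2 and 2.67 to 18.1 RPKM elsewhere (log2 difference 2.92 ± 0.34 (SE), adjusted p = 0.000891), counted on a shorter transcript than in tumors. Nid1 read 184 and 178 RPKM against 9.74 to 104 RPKM (log2 difference 2.40 ± 0.46 (SE), adjusted p = 0.00752), and without either LL2 library its adjusted p was 0.0747 or 0.0742. Hspg2 and Lum were likewise above all other libraries, at 121 to 152 and 257 to 281 RPKM. Fmod was lowest there, at 0.992 and 0.520 RPKM, where the other models read 5.46 to 60.96 RPKM (log2 difference -3.24 ± 0.59 (SE), adjusted p = 0.00609), a call lost without either LL2 library (adjusted p = 0.0537 and 0.0768). Thbs4 and Comp were below all other libraries as well, and without LL2 library a or b their calls were lost too (adjusted p = 0.0857 and 0.146 for Thbs4, 0.145 and 0.195 for Comp).

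MC38 CAFs were highest for 2 thrombospondins known from tendon and cartilage. Thbs4 read 442 and 63.2 RPKM in MC38 CAFs and 4.67 to 62.6 RPKM elsewhere, and both MC38 libraries lay above every other although they differed widely (log2 difference 3.12 ± 0.69 (SE), adjusted p = 0.00620). Comp read 16.05 and 3.79 RPKM, against at most 3.03 RPKM (log2 difference 2.15 ± 0.44 (SE), adjusted p = 0.00425). Smoc1 and Agrn were the only members not lower in library b, and they were higher in MC38 than in all other CAFs, at 6.42 and 8.62 and 65.3 and 79.9 RPKM (log2 difference 1.56 ± 0.19 (SE), adjusted p = 0.000369; log2 difference 1.44 ± 0.15 (SE), adjusted p = 0.000187). Tnc, Efemp1, Emilin2 and Lum were below all other libraries in both MC38 libraries. The margin was slight for Tnc (89.25 RPKM in library a against 89.29 RPKM in the lowest other library) and Emilin2 (19.1 against 19.7 RPKM). The MC38 call of Tnc was lost in 2 alternatives, 1 of them edgeR on CAF values divided by their smallest step (log2 difference -1.76, adjusted p = 0.0579).

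In Pan02 CAFs 12 members were lower, among them Tnxb, Sparcl1, Smoc1, Efemp2, Nid2 and Hspg2, which lay below all other libraries. The higher ones included Prelp, at 126 and 147 RPKM against 11.1 to 41.7 RPKM (log2 difference 2.35 ± 0.40 (SE), adjusted p = 0.00235), and Thbs1, at 256 and 223 RPKM against 17.5 to 161 RPKM (log2 difference 2.06 ± 0.51 (SE), adjusted p = 0.0119). Both lay above all other libraries, and the call of Thbs1 was lost without Pan02 library a (adjusted p = 0.0775) or b (0.0582). Fn1 read 1991 and 1321 RPKM in Pan02 CAFs and at most 1031 RPKM elsewhere (log2 difference 1.63 ± 0.29 (SE), adjusted p = 0.00300), and Spon2, Ecm1 and Matn2 were also above every other library. The call of Spon2 was lost without Pan02 library a (adjusted p = 0.113) or b (0.0576), that of Ecm1 without Pan02 library a (log2 difference 0.96, adjusted p = 0.0528) or MC38 library b (0.96), and those of Sparcl1 (adjusted p = 0.0742) and Tnxb (0.0820) without Pan02 library b. Epithelial markers summed to 836 to 1122 RPKM here and fibroblast markers to 1762 to 3445 RPKM, against 8598 to 9386 RPKM in EO771, and their part in these differences was not tested. The summed members divided by the fibroblast markers, which include collagen genes, gave 1.75 to 2.67 in Pan02 CAFs, above the 0.843 to 1.41 of the other CAFs.

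By the count of members without overlap, EO771 CAFs had 10 of 48 above all other libraries (background 17.3%) and 2 below (17.4%), and LL2 CAFs had 7 (9.38%) and 4 (7.79%). MC38 CAFs had 5 above (20.3%) and 4 below (19.8%), and Pan02 CAFs had 6 above (20.0%) and 9 below (15.4%). Some of these shares lay above their background and others below it, and none was tested against it.

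**Figure D4:**
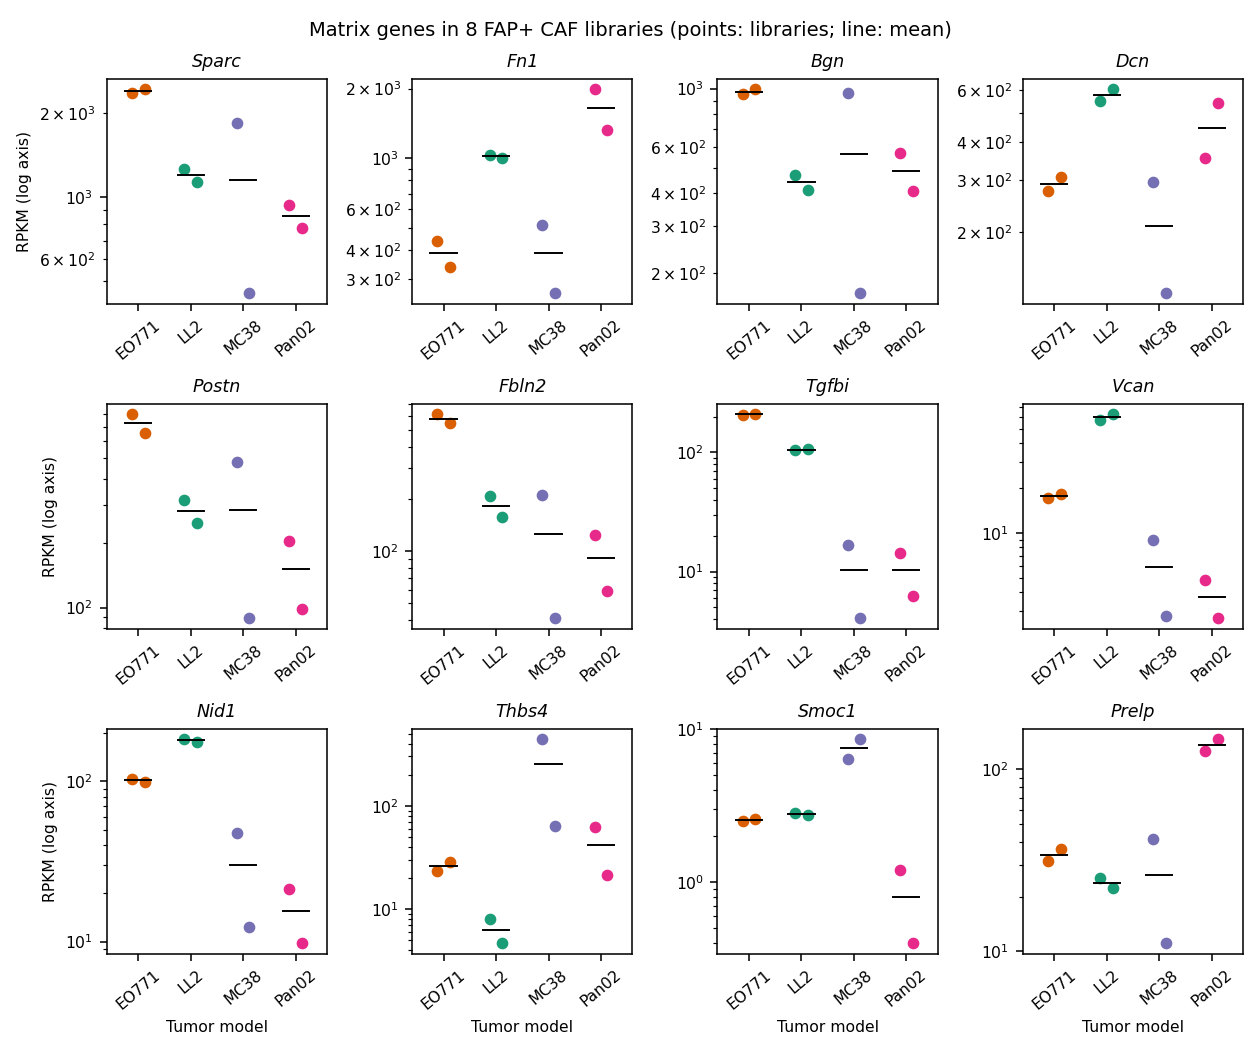
RPKM (log scale) of 12 members in each of the 8 CAF libraries, by model, with 1 point per library. The pair of MC38 libraries lie far apart for most members, and Tgfbi and Fbln2 peak in EO771, Vcan and Nid1 in LL2, Thbs4 and Smoc1 in MC38, and Fn1 and Prelp in Pan02.

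Tumors and CAFs were set side by side for the 4 shared models, each model against the other 3 within its own table. The tables were normalized separately, so no value was tested between them. In 13 cases a member lay on the same side of all other libraries in both tables without overlap. These were Tgfbi, Emilin2 and, at the low side, Matn2 in EO771, then Nid1, Vcan and, at the low side, Fmod in LL2, then Smoc1 in MC38, and Fn1, Spon2, Ecm1, Thbs1, Prelp and, at the low side, Smoc1 in Pan02. The share of members was 12.5% for Pan02 (all genes 13.3%), 6.25% for EO771 (15.1%), 6.25% for LL2 (6.42%) and 2.08% for MC38 (12.6%), at or under the background in each model. Tumor and CAF differences had the same sign for 58.3% of members in EO771 (all genes 75.4%), 77.1% in LL2 (75.0%), 81.2% in MC38 (69.6%) and 45.8% in Pan02 (67.9%).

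In 3 cases the sides were opposite without overlap. Ogn was lower in EO771 tumors, at 0.636, 0.594 and 1.96 CPM against 2.86 to 31.0 CPM in the other 3 models, and higher in EO771 CAFs, at 13.98 and 21.1 RPKM against 3.96 to 12.3 RPKM. Sparcl1 was above the other 3 models in Pan02 tumors, at 75.7, 85.4 and 121 CPM against at most 68.3 CPM, and below them in Pan02 CAFs, at 7.62 and 4.86 RPKM against 15.7 to 72.97 RPKM. Mfap4, a glycoprotein of microfibrils, showed the same reversal, with 154, 164 and 130.2 CPM in Pan02 tumors against at most 60.3 CPM, and 27.2 and 17.5 RPKM in Pan02 CAFs against 29.3 to 144 RPKM. The CAF differences of Ogn (adjusted p = 0.0458, log2 difference 0.99) and Mfap4 (adjusted p = 0.0730) fell short of the count of called members. Ogn met it with edgeR on CAF values divided by their smallest step (log2 difference 1.08, adjusted p = 0.0380). Sparcl1 met it with both Pan02 libraries (log2 difference -2.08 ± 0.48 (SE), adjusted p = 0.00869). The Sparcl1 call was lost without library b (log2 difference -1.80).

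**Figure D5:**
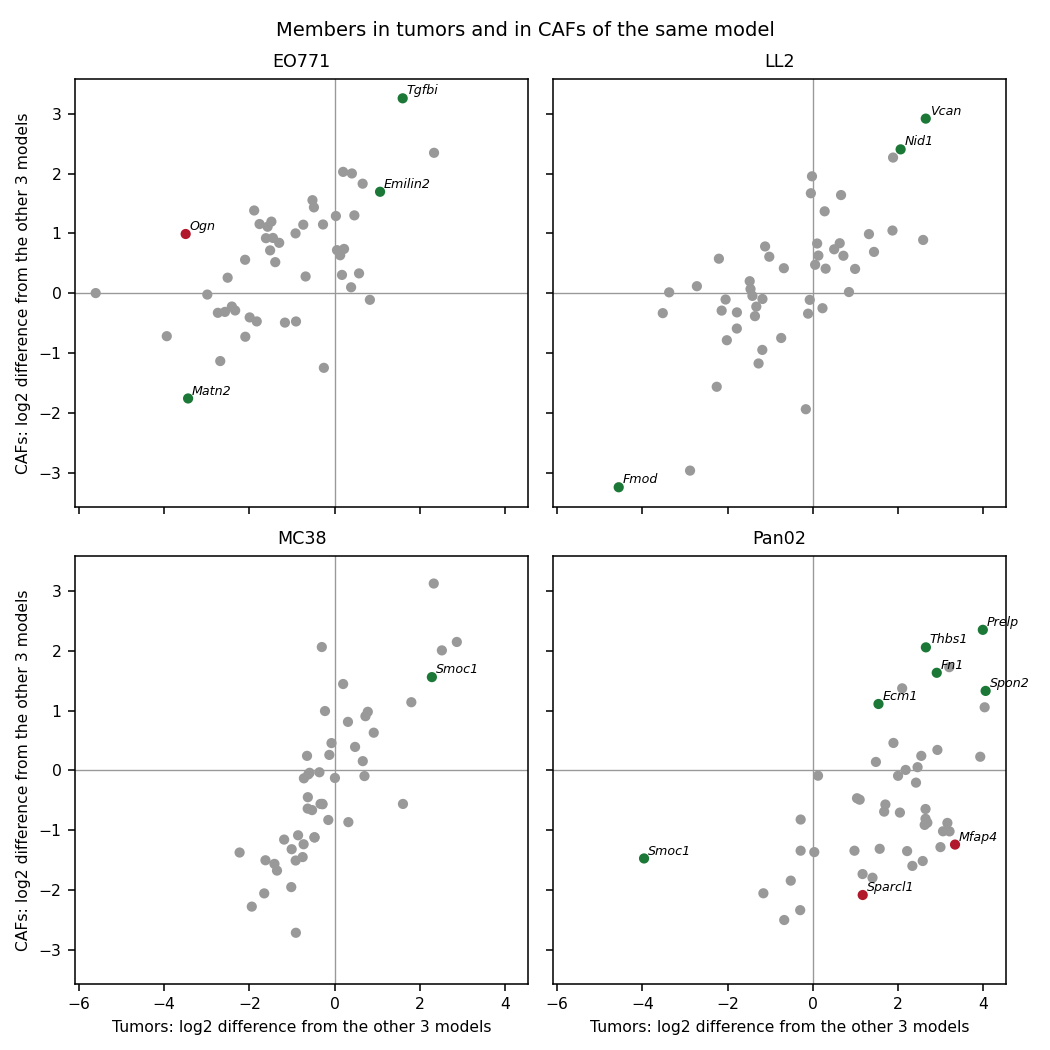
Log2 difference of each of 4 models from the other 3 in tumors (x axis) and in CAFs (y axis), with 1 panel per model and 1 point per member tested in both tables. Green points lie on the same side of all other libraries in both tables without overlap, and the 3 red points (Ogn in EO771, Sparcl1 and Mfap4 in Pan02) lie on opposite sides.

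Other genes of the same matrix were listed by name for comparison. The background share of all genes called is given in brackets. Of 44 further glycoproteins and proteoglycans tested in tumors, 30 were lower (19.6%) and 4 higher (13.1%) in B16. In Pan02 31 were higher (18.8%) and 0 lower (7.92%). EO771 had 11 higher (9.71%) and 11 lower (13.7%), LL2 7 (8.51%) and 10 (8.3%), and MC38 8 (11.2%) and 6 (8.23%). Of 39 enzymes of glycosaminoglycan synthesis, which build the sugar chains of the proteoglycans, 15 were lower (19.6%) and 3 higher (13.1%) in B16. In Pan02 10 of these enzymes were higher (18.8%) and 1 lower (7.92%). Their median log2 fold change was -0.66 in B16 and 0.33 in Pan02, where the 51 members had -2.67 and 2.65. LL2 tumors had a similar enzyme median of 0.34. There 27 of 39 enzymes lay above the mean of the other models, against 26 of 39 in Pan02. A raised enzyme median was therefore not particular to Pan02. For MC38 and EO771 tumors the enzyme medians were -0.25 and -0.01. In CAFs, 9 of 39 further matrix genes were higher (9.73%) and 9 lower (8.41%) in Pan02. Npnt, nephronectin, an integrin ligand of epithelial basement membranes, read 27.3 to 42.6 RPKM in Pan02 CAFs and at most 0.48 RPKM elsewhere. Of 37 synthesis enzymes in CAFs 10 were lower (9.87%) and 1 higher (10.9%) in MC38, and 6 were lower (8.41%) and 1 higher (9.73%) in Pan02. In EO771 7 were higher (8.05%) and 1 lower (7.06%), and in LL2 6 were higher (3.89%) and 1 lower (5.13%). The CAF counts of these lists are given with all libraries only.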

How the data were processed

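Poly(A) RNA of 15 tumors and 8 CAF libraries was sequenced without strand. Per the labels and the study's methods, the authors aligned reads to mm10 with STAR 2.5.0c and counted them over exons with HOMER. The deposited tumor table gives expected counts for each RefSeq transcript as multiples of 0.5, not normalized, and the deposited CAF table holds RPKM, with its depth not stated. Values of 5 columns of another model were not used. For each symbol the transcript of largest mean was kept.

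The quasi-likelihood F test of edgeR 4.0.16 was applied to tumor counts after rounding up, the filterByExpr filter and TMM scaling, with a common dispersion of 0.0559 over 15732 genes. The CAF test was that of limma 3.58.1 with a variance trend on log2(RPKM + 1), over 13598 genes that reached 1 RPKM in 2 or more libraries. All p-values were adjusted by Benjamini-Hochberg over all genes tested. R 4.3.3, DESeq2 1.42.0 and Python 3.11.15 were also used, and the fits were tested on simulated data. The rule for members uses no measured value, but it, the gene lists and the rule for named genes were chosen with earlier results of these data known. Named genes were the 3 largest rises and 2 largest falls per tumor model, the 2 largest rises and the largest fall per CAF model, the 6 most abundant members of each table, members on opposite sides in tumors and CAFs, and of the other lists the 2 largest rises in each table. Alternatives covered normalization, filter, rounding, transcript choice, pseudocount, the replicate number as a block and leaving out each library. A fit of edgeR to CAF values divided by their smallest step was added after seeing the data.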

Additional observations from a re-analysis of the deposited data

Results flagged for a closer look

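In 3 cases a model's tumors and CAFs lay on opposite sides of all libraries of the other 3 models. The log2 difference of Ogn in EO771 was -3.50 in tumors and 0.99 in CAFs. That of Sparcl1 in Pan02 was 1.17 in tumors and -2.08 in CAFs, and that of Mfap4 in Pan02 was 3.34 in tumors and -1.24 in CAFs. Cases of this kind made up 2.08% of members in EO771 and 4.17% in Pan02, against 0.31% and 0.553% of all genes, and so rest on 1 and 2 members. In LL2 and MC38 they were 0 of 48 members, against 0.00757% and 0.871% of all genes. The CAF call of Sparcl1 in Pan02 was lost without Pan02 library b (adjusted p = 0.0742). The difference between tumors and CAFs was not tested, because the tables were normalized separately. No outlier check was made, since no group holds more than 3 samples.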

How the results depend on the processing

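No called member was called in the opposite direction under any alternative, but the balance of MC38 CAFs turned from 6 higher and 14 lower to 16 higher and 4 lower without MC38 library b. The number of called members stayed within 1.5 times the reported value under every alternative on all libraries, except that EO771 CAFs had 7 called members without the filter on low values (11 reported). Leaving out each library in turn gave 49 to 50 members differing among tumors and, in tumors, 40 to 43 called members for B16, 15 to 25 for EO771, 16 to 23 for LL2, 6 to 17 for MC38 and 35 to 37 for Pan02. In CAFs it gave 22 to 47 differing members and 4 to 24 called for EO771, 4 to 17 for LL2, 15 to 30 for MC38 and 10 to 30 for Pan02. EO771 CAFs had 7 called members without LL2 library a, LL2 library b or Pan02 library b. The CAF counts thus rest on 2 libraries per model, and for MC38 on libraries that stand apart. No share of all genes is given beside the counts of these alternatives. The lower members of MC38 tumors numbered 2 under total-count scaling (4 reported) and those of MC38 CAFs 9 under edgeR on recovered steps (14 reported). Without the filter EO771 CAFs had 4 higher members (8 reported) and LL2 CAFs 2 lower (4 reported). The causes were not tested. Tumor replicate numbers showed no sign of pairing: the correlations of deviations had a median of 0.006 over 30 same-numbered pairs and were over 0.1 in 5. Over 60 pairs of different number the median was 0.005, with 13 over 0.1. With 3 tumors per model these values cannot decide whether same-numbered tumors were paired. With the replicate block 50 members differed among models, and 42 were called for B16, 21 for EO771, 19 for LL2, 16 for MC38 and 36 for Pan02. No paired analysis was possible because the CAF columns carry no replicate number. In CAFs every low RPKM value was a whole multiple of 1 step within 0.1, and edgeR on these steps gave 31 differing members and 14, 13, 18 and 20 called in EO771, LL2, MC38 and Pan02.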

Other observations

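In tumors, the largest rises among the other gene lists were those of the melanocyte genes Tyrp1 and Tyr in B16, at 5761 ± 505 and 864 ± 147 CPM (SD, n = 3), where the means of the other models were at most 4.82 and 0.632 CPM. In CAFs they were those of the keratin Krt18, at 349 to 483 RPKM, and of Npnt, both in Pan02. Krt18 read 97.2 to 101 RPKM in LL2 CAFs and at most 1.40 RPKM in EO771 and MC38 CAFs, while Krt8 read 492 to 495 RPKM in EO771 CAFs and at most 0.274 RPKM in MC38 CAFs. Pericyte markers were lower in Pan02 CAFs for 6 of 6 genes, with a sum of 14.5 to 16.1 RPKM, against 49.1 to 225 RPKM in MC38 CAFs.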
